A study of Mus musculus with 16 samples.

Results

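Accessible regions deep in intergenic sequence were taken from ATAC-seq data of mouse ES cells. A region belonged to this group when it lay on an autosome, its centre fell outside every GENCODE M21 gene, and the closest transcription start site (TSS) of any transcript was more than 50 kb away. Of the 81132 regions of the merged list, 4691 met the rule (5.78%, 95% Wilson interval 5.62 to 5.94%), and they are called far intergenic regions. The experiment comprised 12 ATAC-seq libraries, with 3 replicates for every population, named SHOH, SHOL, SLOH and SLOL. These names stand for SOX2-high or SOX2-low and OCT4-high or OCT4-low cells, sorted in G1 phase after staining of the tags. All 4 populations came from SBROS, a clonal knock-in ES cell line of the CGR8 background that is homozygous for SOX2 fused to a SNAP-tag and heterozygous for OCT4 fused to a HALO-tag, and all were grown in serum with LIF and the inhibitors CHIR99021 and PD184352. SBROS cells also carry reporters of SOX1 and Brachyury. The merged list pools the peaks of all libraries and holds positions alone, with no level, score or library of origin. The populations could therefore not be compared, no depth or replicate error can be given to a region, and the labelled cell type could not be checked against marker genes.

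ATAC-seq maps DNA that the Tn5 transposase can reach, which includes promoters, enhancers and sites bound by insulator proteins. Enhancers can act over long distances, and many developmental regulators and neuronal genes are flanked by gene deserts, long stretches without genes that can hold such distant elements. OCT4 and SOX2 bind octamer and SOX motifs in ES cells, ESRRB and KLF factors belong to the same pluripotency network, and CTCF, a zinc finger protein, binds at many loop anchors and domain borders.

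Sequences of 7 far intergenic regions are shown. Of these, 6 carry motifs compared here, and the other, labelled widest low-repeat member, held none. It is the widest that met the conditions below. A wider low-repeat member, of 1895 bp, lay inside a RefSeq gene and was left out. Each is the 300 bp window around the centre of the region, read from the plus strand of GRCm38, the assembly that mm10 denotes. Capitals mark matches to the motifs searched, on either strand. Windows had at most 20% repeat-masked bases. Their regions had no blastn match over at least 50% of their length elsewhere in the list and lay outside RefSeq genes. The choice also left out an autosome and all windows with a composite site, in which SOX and OCT sequences are joined. Farthest and widest with a given motif or repeat share thus hold among the windows eligible for display alone. The first is the member farthest from a TSS, at chr1:114593962-114594261, in the desert between 9330185C12Rik and Gm4854, with a TEAD match. The next 4 are the farthest such members with a SOX motif, a KLF motif, an ESRRB motif and an OCT octamer. They lie at chr6:9693695-9693994 between Nxph1 and Gm5110, at chr8:127971888-127972187 between Pard3 and Mir21c, at chr10:55767621-55767920 between Gm46190 and Tbc1d32, and at chr8:100940328-100940627 between Gm39232 and Gm22223. The next is the widest such member, at chr1:186833933-186834232 between A430105J06Rik and 1700023G09Rik, which held none of the 7 motifs in its window. The last, at chr6:100378200-100378499, lies between Rybp and Gm23234 and held an ESRRB and a SOX match. All 7 are intergenic in GENCODE M21.
Farthest member: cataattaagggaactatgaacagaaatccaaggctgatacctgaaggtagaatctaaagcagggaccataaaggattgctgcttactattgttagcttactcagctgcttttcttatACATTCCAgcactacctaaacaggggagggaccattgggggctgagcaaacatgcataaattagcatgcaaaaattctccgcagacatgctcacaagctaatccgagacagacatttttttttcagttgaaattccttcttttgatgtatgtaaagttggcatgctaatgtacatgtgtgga
SOX motif member: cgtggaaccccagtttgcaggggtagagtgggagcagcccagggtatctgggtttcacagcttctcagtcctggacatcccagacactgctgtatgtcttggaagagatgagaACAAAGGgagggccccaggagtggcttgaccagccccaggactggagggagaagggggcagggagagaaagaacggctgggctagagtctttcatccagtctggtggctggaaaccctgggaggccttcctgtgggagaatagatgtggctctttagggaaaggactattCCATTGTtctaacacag
KLF motif member: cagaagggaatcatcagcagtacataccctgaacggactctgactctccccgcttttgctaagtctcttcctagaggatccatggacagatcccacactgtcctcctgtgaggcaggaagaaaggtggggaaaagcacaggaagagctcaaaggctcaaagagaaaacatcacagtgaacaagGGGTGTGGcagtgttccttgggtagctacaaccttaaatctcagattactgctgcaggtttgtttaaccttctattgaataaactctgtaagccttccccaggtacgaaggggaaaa
ESRRB motif member: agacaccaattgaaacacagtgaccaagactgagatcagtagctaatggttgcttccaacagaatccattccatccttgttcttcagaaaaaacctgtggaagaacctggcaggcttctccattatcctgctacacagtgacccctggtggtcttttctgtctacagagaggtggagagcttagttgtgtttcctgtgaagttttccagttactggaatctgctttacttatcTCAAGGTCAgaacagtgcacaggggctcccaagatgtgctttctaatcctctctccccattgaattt
OCT octamer member: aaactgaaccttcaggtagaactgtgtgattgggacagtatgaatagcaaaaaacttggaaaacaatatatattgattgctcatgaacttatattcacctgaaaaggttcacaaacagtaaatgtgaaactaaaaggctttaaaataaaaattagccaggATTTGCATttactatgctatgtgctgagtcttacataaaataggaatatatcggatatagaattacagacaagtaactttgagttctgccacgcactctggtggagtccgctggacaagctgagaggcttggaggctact
Widest low-repeat member: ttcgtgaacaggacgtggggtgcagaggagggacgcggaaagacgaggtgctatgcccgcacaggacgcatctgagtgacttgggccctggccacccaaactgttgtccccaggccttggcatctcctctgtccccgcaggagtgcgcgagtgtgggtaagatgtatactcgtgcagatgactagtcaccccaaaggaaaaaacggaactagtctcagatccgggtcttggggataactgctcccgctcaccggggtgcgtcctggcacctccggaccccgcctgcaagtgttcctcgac
Rybp desert member: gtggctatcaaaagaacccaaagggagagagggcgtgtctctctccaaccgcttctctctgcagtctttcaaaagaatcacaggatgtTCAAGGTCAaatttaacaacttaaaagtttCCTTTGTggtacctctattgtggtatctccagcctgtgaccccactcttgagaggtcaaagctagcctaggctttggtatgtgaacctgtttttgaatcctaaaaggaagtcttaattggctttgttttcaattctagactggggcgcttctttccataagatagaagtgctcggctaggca

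The far intergenic regions were narrow, with a median width of 329 bp (quartiles 208 and 496 bp) and a range from 112 to 1947 bp. Their median distance to the closest TSS was 82880 bp (quartiles 63271 and 122062 bp). The member closest to the threshold lay 50002 bp from a TSS, on chromosome 8, and the closest intergenic region outside it lay 49990 bp away, on chromosome 6. Of the members, 1680 (35.8%, 95% Wilson interval 34.5 to 37.2%) were more than 100 kb from a TSS, 367 (7.82%, 7.09 to 8.63%) more than 200 kb and 9 (0.192%, 0.101 to 0.364%) more than 500 kb. The closest TSS could be that of a noncoding gene or a pseudogene. The median distance to the closest TSS of a protein-coding gene was 198 kb (quartiles 98.3 and 424 kb), and the largest was 2606 kb. When protein-coding genes alone defined gene bodies and TSS, 14650 regions met the rule in place of 4691, and with a threshold of 25 kb 9494 did. Although outside GENCODE genes, 407 members (8.68%, 7.90 to 9.52%) were centred inside the body of a RefSeq gene. The RefSeq genes concerned included 217 lncRNA genes and 16 protein-coding genes. Among the latter, picked after their counts were seen, Robo2, an axon guidance receptor, held 9 of these members, and Tln2, which encodes a talin that links integrins to actin, held 5.

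The density of intergenic regions was lower far from genes. Per Mb of sequence without runs of N it was 31.3 regions between 1 and 5 kb from a TSS, 33.3 between 5 and 10 kb and 20.4 between 25 and 50 kb. Within the far intergenic group it went from 15.4 per Mb (95% Poisson interval 14.7 to 16.1) between 50 and 75 kb to 8.65 per Mb (7.64 to 9.76) between 200 and 300 kb and 8.28 per Mb (6.69 to 10.1) between 300 and 500 kb. Beyond 500 kb the 9 members gave 12.5 per Mb with an interval from 5.69 to 23.6, which is too wide to place this class in the order. The repeat-masked share of a region moved the other way. Its median was 16.7% between 50 and 75 kb, 48.0% between 200 and 300 kb and 68.7% between 300 and 500 kb. These medians describe the regions alone and were not set against the sequence around them. The intervals cover counting error only.

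**Figure D1:**
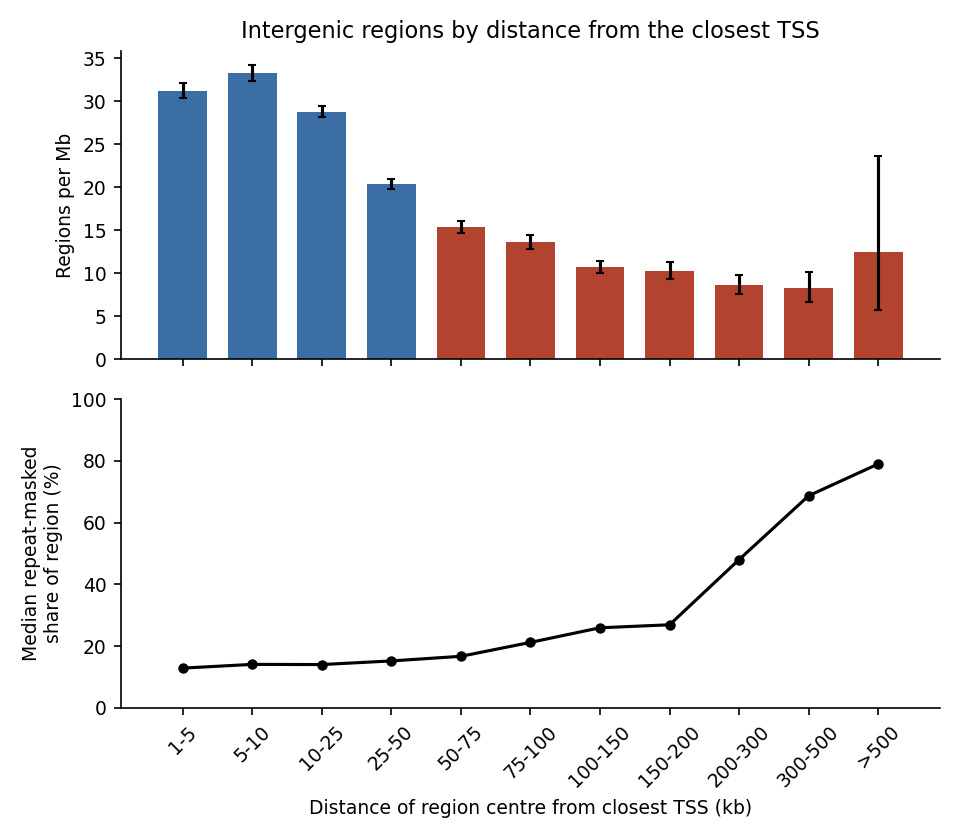
Intergenic regions by distance of the centre from the closest TSS in kb. Upper bars give regions per Mb of intergenic sequence without runs of N, with 95% Poisson intervals, for near intergenic (blue) and far intergenic (red) distances; lower points give the median repeat-masked share of a region in percent. Density was 15.4 per Mb at 50 to 75 kb and 8.28 per Mb at 300 to 500 kb, where the median repeat share was 68.7%.

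The far intergenic regions were set against 2 groups of the same list, to separate distance from a TSS and position outside genes. Near intergenic regions (22968) were centred outside genes, more than 1 kb and up to 50 kb from a TSS. Far intronic regions (2360) were centred in a gene body, outside exons, and more than 50 kb from a TSS. Values were computed per autosome, and a two-sided exact sign test counted the autosomes on which a value was higher. Chromosomes are not replicate cultures, so p describes how evenly a difference was spread over the genome. The smallest p that 19 autosomes allow is 3.81e-06, and p-values were Benjamini-Hochberg adjusted over 26 comparisons.

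Far intergenic sequence held fewer regions than near intergenic sequence. Over all autosomes the density was 12.6 against 27.7 regions per Mb, and it was lower on 19 of 19 autosomes (adjusted exact p = 2.48e-05). Far intronic sequence held 15.1 per Mb, and far intergenic density was lower on 15 of 19 autosomes (adjusted exact p = 0.0416). This second difference, -2.47 per Mb, was -2.40 per Mb without chromosome 6 and did not pass there, with lower density on 14 of 18 autosomes (adjusted exact p = 0.0669). It did not pass either with protein-coding genes alone (-1.06 per Mb, adjusted exact p = 0.271) or with a threshold of 100 kb (-1.99 per Mb, adjusted exact p = 1). Eligible far intergenic sequence made up 371 Mb, or 15.5% of the autosomal sequence without runs of N, and the members covered 0.487% of it. Chromosome 6 stood apart with 452 members, 9.64% of the group, and 22.3 per Mb, while the other 18 autosomes ranged from 6.76 to 15.4 per Mb with a median of 11.8. Chromosome 6 was also the densest autosome for near intergenic (42.9 per Mb) and far intronic regions (24.3 per Mb). Chromosome 19 was lowest, with 46 members.

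**Figure D2:**
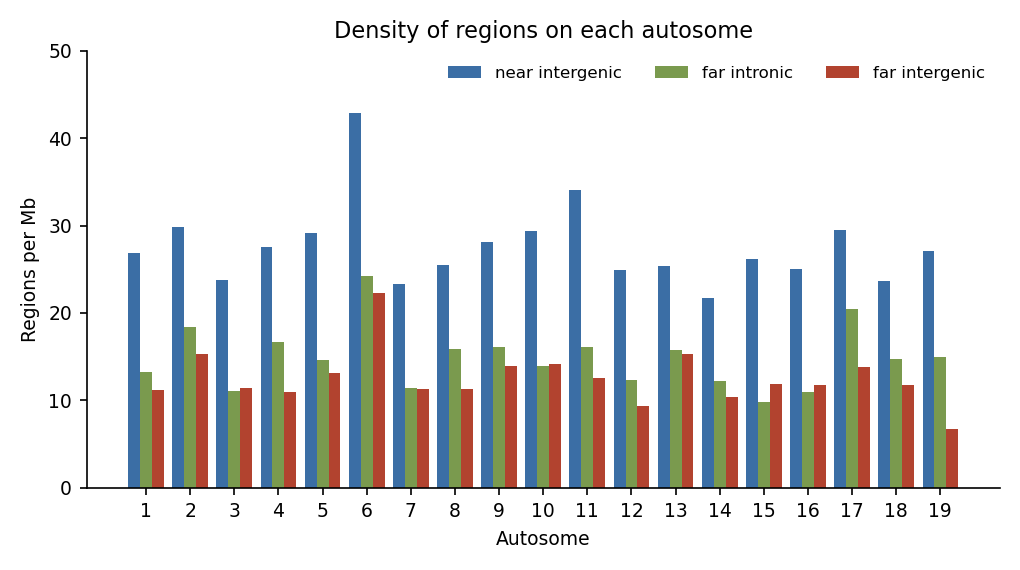
Regions per Mb of eligible sequence on each autosome for near intergenic, far intronic and far intergenic regions of the merged list; each bar is 1 value without replicates. Far intergenic density was below near intergenic density on all 19 autosomes, and chromosome 6 was highest in each group, with 22.3 far intergenic regions per Mb.

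Another region of the list was centred within 5 kb of 28.1% of far intergenic regions, 45.7% of near intergenic regions and 30.5% of far intronic regions. Regions at promoters counted as neighbours, and the rule keeps them away from far intergenic regions, so the difference from near intergenic regions is partly set by the rule. Against far intronic regions, which share the 50 kb threshold and lay at a median of 74942 bp from a TSS, the share was lower on 11 of 19 autosomes (adjusted exact p = 0.765). Widths differed little. The median was 329 bp in far intergenic, 319 bp in near intergenic and 307 bp in far intronic regions, and neither difference passed (adjusted exact p = 0.492 and 0.127). With regions of at least 200 bp alone both passed, with medians 17 and 25 bp larger in the far intergenic group (adjusted exact p = 0.0115 and 0.00271).

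Far intergenic regions had lower GC content than near intergenic regions and a higher repeat content than either group. Their median GC content was 47.5%, against 49.7% in near intergenic regions (lower on 19 of 19 autosomes, adjusted exact p = 2.48e-05) and 48.0% in far intronic regions (lower on 12 of 19, adjusted exact p = 0.492). The CpG observed to expected ratio of the 300 bp windows had a median of 0.204, against 0.238 in near intergenic regions (lower on 18 of 19, adjusted exact p = 0.000331) and 0.196 in far intronic regions (lower on 9 of 19, adjusted exact p = 1). Windows with more than 50% GC and a CpG ratio above 0.6, the composition of CpG islands, were 189 of the far intergenic regions (4.03%, 95% Wilson interval 3.50 to 4.63%), 1165 of the near intergenic regions (5.07%, 4.80 to 5.36%) and 44 of the far intronic regions (1.86%, 1.39 to 2.49%), which was not tested. The median repeat-masked share was 21.2%. It was 14.0% in near intergenic regions, and higher in the far intergenic group on 16 of 19 autosomes (adjusted exact p = 0.0128). It was 11.7% in far intronic regions, and higher in the far intergenic group on 19 of 19 autosomes (adjusted exact p = 2.48e-05). The size of these differences depended on the rule. Against near intergenic regions it was 7.19 percentage points, 3.84 with protein-coding genes alone and 16.1 with a threshold of 100 kb. Against far intronic regions it was 9.52, 4.79 and 16.7 in the same order. Of the members, 558 (11.9%) were more than 90% repeat and 825 (17.6%) held no repeat-masked base. Members were not richer in repeats than the sequence close by. Their 300 bp windows had a median repeat-masked share of 21.7%, against 25% in windows 5 kb away, which was not tested.

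Many members resembled other regions of the list. Similarity, a comparison added after the data were seen, was scored by blastn against all 79278 autosomal regions of the list, at 80% identity or more over at least 50% of the region searched. A wide region can thus match a narrower one without being counted as similar to it. At least 1 similar region was found for 28.4% of far intergenic regions (95% Wilson interval 27.1 to 29.7%), 17.3% of near intergenic regions (16.8 to 17.8%) and 12.7% of far intronic regions (11.4 to 14.1%). At least 10 were found for 1027 members (21.9%, 20.7 to 23.1%), 10.8% of near intergenic regions (10.4 to 11.2%) and 9.36% of far intronic regions (8.25 to 10.6%). This share was 18.5% (17.2 to 20.0%) of members 50 to 100 kb from a TSS, 24.9% (22.6 to 27.3%) at 100 to 200 kb and 38.7% (33.9 to 43.8%) beyond 200 kb. These shares were not tested between groups. When members similar in either direction were joined in chains, 1106 fell into a single group on all 19 autosomes, with a median repeat share of 86.5%. Of their windows, 259 (23.4%) held a SOX motif, 24 (2.17%) a KLF motif and 2 (0.181%) a CTCF core. A second group held 34 members in 34 deserts on 16 autosomes, with a median GC content of 43.3%, and 28 of the 34 windows held an AP-1 motif, which was in 10.7% of all far intergenic windows. The next held 11 members, all on chromosome 5 in 7 deserts, and 8 of these windows held a KLF motif, against 5.05% of all. A SOX motif was in 6 of 9 windows of the sixth group and in 5 of 8 of the seventh, against 18.6% of all. Since the groups were formed by sequence likeness, a shared motif follows in part from the grouping, and the groups named here were picked after their values were seen. No member matched mitochondrial DNA (0 of 4691, at an E-value of at most 1e-10).

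Short motifs were counted on both strands of the 300 bp windows. They were the OCT octamer (ATGCAAAT), the SOX motif (CCATTGT or CCTTTGT), the CTCF core, the ESRRB motif (TCAAGGTCA), the KLF motif (CCACACCC), the AP-1 motif (TGANTCA) and the TEAD motif (ACATTCCA). Each motif was counted on its own, and matches of different motifs could overlap. A match describes the sequence and is not a bound site. The SOX motif occurred in 18.6% of far intergenic windows (95% Wilson interval 17.5 to 19.7%), the AP-1 motif in 10.7%, the CTCF core in 5.12%, the KLF motif in 5.05%, the OCT octamer in 3.30%, the ESRRB motif in 2.54% and the TEAD motif in 2.05%. In all autosomal regions of the list the shares were 12.6%, 8.57%, 5.55%, 6.20%, 2.13%, 1.85% and 1.81% in the same order. None of the 7 motifs was found in 2805 members (59.8%), and 38 members held both an OCT octamer and a SOX motif.

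Each window was paired with a window of the same length 5 kb away that held no region of the list and no N. This was possible for 4690 members, and pairs were compared by two-sided exact McNemar tests adjusted over the 7 motifs. Members are not replicates, and their pairs are not independent. A single group of similar sequence held 1106 members, and windows of close members can overlap. The p-values of these tests thus describe the windows of this list alone and overstate the evidence to the extent that pairs depend on each other. The CTCF core had the largest ratio of regions to flanks, in 5.12% of regions against 0.0640% of flanks (240 pairs with a match in the region alone and 3 in the flank alone, adjusted exact p = 2.37e-66). KLF motifs were found in 5.05% against 1.58% (adjusted exact p = 1.56e-21), ESRRB motifs in 2.54% against 0.789% (adjusted exact p = 2.77e-11) and SOX motifs in 18.6% against 13.3% (adjusted exact p = 1.49e-11). Smaller differences in the same direction were found for AP-1 (10.7% against 9.32%, adjusted exact p = 0.0293) and TEAD (2.05% against 1.41%, adjusted exact p = 0.0252). When matches in repeat-masked bases were left out, neither passed, with AP-1 in 7.31% against 7.25% (adjusted exact p = 0.937) and TEAD at about the same ratio as before, in 1.56% against 1.07% (adjusted exact p = 0.0547). AP-1 also did not pass in a sign test over autosomes (adjusted exact p = 0.332). In that sign test CTCF and KLF (both adjusted exact p = 2.67e-05), ESRRB (3.56e-05), SOX (0.00128) and TEAD (0.00879) passed.

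The OCT octamer went the other way, in 3.30% of regions against 5.01% of flanks (adjusted exact p = 7.00e-05). Of the 235 flanks with an octamer, 160 had it in repeat-masked bases alone (68.1%), compared with 52 of 155 regions (33.5%). The sign test over autosomes passed (adjusted exact p = 0.00184). It used the same windows, so the pooled difference could not change. Other windows or matches turned the direction. With flanks 2 kb away the octamer was in 2.56% of flanks (adjusted exact p = 0.0451), in pairs within 5 percentage points of GC it was in 4.41% of regions against 2.94% of flanks (adjusted exact p = 0.0351), and outside repeat-masked bases in 2.20% against 1.60% (adjusted exact p = 0.0547). Regions and flanks differed in composition, with median GC contents of 47.7% and 40.7%, and in the 1699 GC-matched pairs CTCF, KLF, ESRRB, SOX and AP-1 matches were also more frequent in regions, while the TEAD difference did not pass (adjusted exact p = 0.275).

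**Figure D3:**
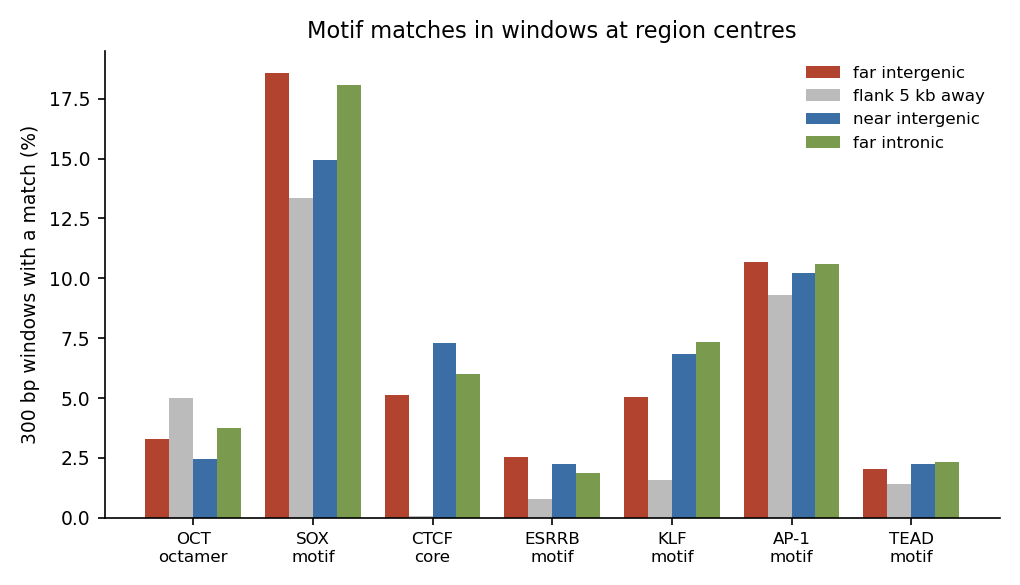
Percent of 300 bp windows with a match to each of 7 motifs at the centres of far intergenic, near intergenic and far intronic regions, and in flanks 5 kb from the far intergenic regions; bars are shares without replicates. The CTCF core was in 5.12% of far intergenic windows and 0.0640% of flanks, and the OCT octamer was the only motif more frequent in these flanks, at 5.01%.

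Compared with near intergenic windows, far intergenic windows held SOX motifs more often (18.6% against 14.9%, higher on 18 of 19 autosomes, adjusted exact p = 0.000331) and CTCF cores and KLF motifs less often. The CTCF core was in 5.12% against 7.29% (lower on 17 of 19, adjusted exact p = 0.00271) and the KLF motif in 5.05% against 6.83% (lower on 16 of 19, adjusted exact p = 0.0128), and the KLF difference did not pass with protein-coding genes alone (-1.23 percentage points, adjusted exact p = 0.271). The OCT octamer was in 3.30% against 2.46% (higher on 15 of 19, adjusted exact p = 0.0416), a difference of 0.849 percentage points that did not pass in 5 of 7 alternatives, although it was 0.821 to 0.989 percentage points in all 7. ESRRB, AP-1 and TEAD did not pass (adjusted exact p = 0.765, 0.492 and 0.492). Against far intronic windows a single motif passed, KLF, with 5.05% against 7.33% (lower on 15 of 19, adjusted exact p = 0.0416), and it did not pass in 6 of 7 alternatives, with differences from -2.63 to -1.13 percentage points. The SOX share of far intronic windows was 18.1% (adjusted exact p = 1). The group of 1106 similar members lay above the near intergenic share for SOX and below it for CTCF and KLF, and its part in these differences was not tested. Far intergenic regions also had a lower median GC content than near intergenic regions (47.5% against 49.7%). Windows were not matched for GC in this comparison, and the part of GC content was not tested.

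The members lay in 1834 gaps between genes, taken as the sequence between neighbouring gene bodies of any biotype. In all, 3523 gaps had at least 1 base more than 50 kb from a TSS, so 52.1% of them held a far intergenic region. The share was 26.2% of the 558 gaps of up to 100 kb, 43.6% of the 1831 gaps of 100 to 200 kb, 76.8% of the 1007 gaps of 200 to 500 kb and 93.3% of the 120 gaps of 500 to 1000 kb. The density in the same classes was 25.1, 17.6, 11.2 and 8.39 members per Mb of far sequence. Of the 7 gaps over 1000 kb, 4 (57.1%) held a member, at 11.3 per Mb, and the 3 without one are chromosome starts that consist mostly of N. Most gaps held few members. A single member was found in 783 gaps and 2 to 4 in 815, while 34 gaps held 10 to 19 and 5 held 20 or more. The 387 richest gaps, 21.1% of those with a member, held 50% of all members. Gaps with 10 to 19 members had a median GC content of 42.7% and a median repeat-masked share of 30.1%, against 39.5% and 37.4% over all 3523 gaps.

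**Figure D4:**
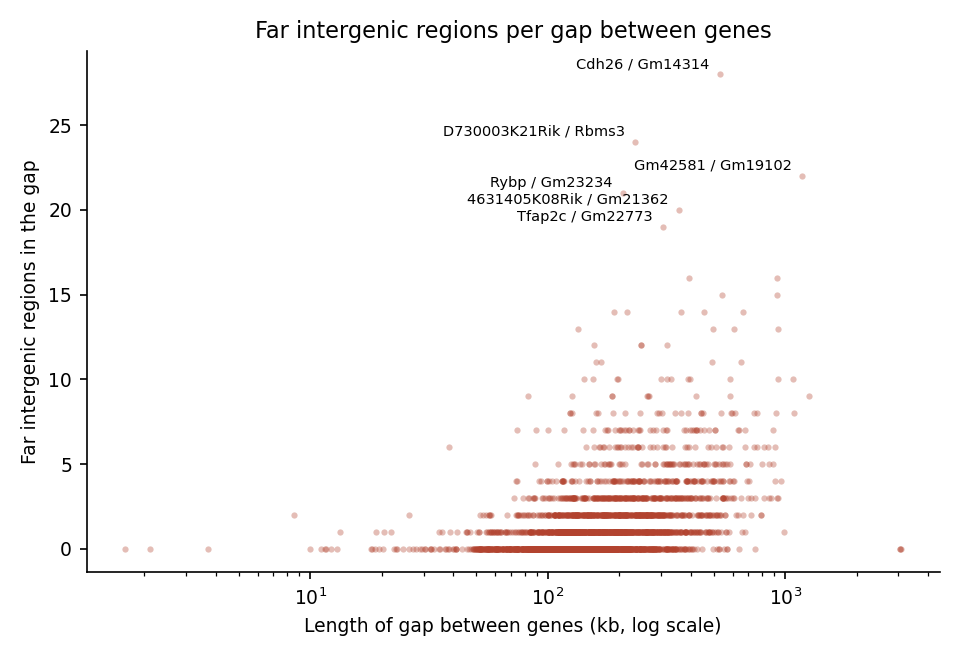
Number of far intergenic regions in each of 3523 gaps between genes, against the length of the gap in kb on a log scale; each point is 1 gap. The 6 gaps with the most regions are named by their border genes and hold 19 to 28 regions; the points at the right end without a region are chromosome starts that consist mostly of N.

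The desert with the most members lay on chromosome 2 between Cdh26, a cadherin gene, and the pseudogene Gm14314, with 28 members in 533 kb. The next protein-coding gene on its right is Cdh4, which encodes R-cadherin, 422 kb beyond the border. The desert of 233 kb between the lincRNA gene D730003K21Rik and Rbms3, an RNA-binding protein gene, on chromosome 9 held 24. Tgfbr2, the type II receptor for TGF-beta, lies 164 kb to its left with its TSS toward the desert. Between Rybp, which encodes a component of Polycomb repressive complex 1, and the snoRNA gene Gm23234 on chromosome 6, 21 members lay within 207 kb, or 196 per Mb of far sequence. Between Tfap2c, the gene of the transcription factor AP-2 gamma, and Gm22773 on chromosome 2 there were 19 members, and Bmp7, a BMP ligand gene, follows 3.75 kb beyond that border. The map of the 8 richest deserts shows where their regions lie.

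On chromosome 6, 22 members lay in the 1181 kb between the pseudogenes Gm42581 and Gm19102, with the potassium channel gene Kcnd2 245 kb to the right. On chromosome 1, 20 lay in the 357 kb between 4631405K08Rik and Gm21362, with the kinase gene Camk1g and the semaphorin receptor gene Plxna2 as the closest protein-coding genes. The deserts around Nxph1, a gene of a secreted ligand of neurexins, and Ndufa4, which encodes a protein of the mitochondrial respiratory chain, held 15 members between Nxph1 and Gm5110 and 16 between AA545190 and Ndufa4. The desert next to Ajap1, a gene of a protein of adherens junctions, held 16 and that next to Fign, which encodes the microtubule-severing enzyme fidgetin, held 15.

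**Figure D5:**
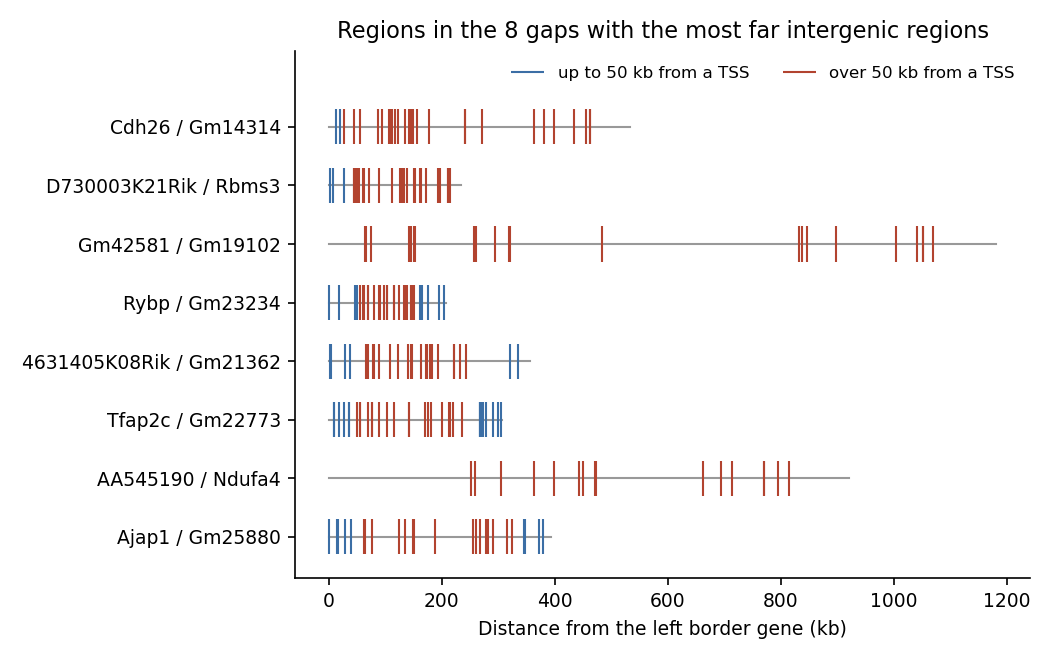
Positions of intergenic regions in the 8 gaps with the most far intergenic regions, in kb from the end of the left border gene; red ticks are regions more than 50 kb from a TSS and blue ticks regions up to 50 kb from one. The gap between Rybp and Gm23234 holds 21 far intergenic regions within 207 kb, and that between Gm42581 and Gm19102 holds 22 over 1181 kb.

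Among deserts of at least 500 kb, the highest densities were found next to Cdh26 (60.8 members per Mb of far sequence), Fign (30.7), Pard3 (24.1), Ythdf3 (24.1) and Map3k7 (20.7). Pard3 encodes a cell polarity protein, Ythdf3 a reader of N6-methyladenosine in RNA, and Map3k7 the kinase TAK1. Nrp1, the neuropilin gene, lies 80.5 kb beyond the desert at Pard3. Long deserts did not all hold many members. The longest desert with a member, 1255 kb between 9330185C12Rik and Gm4854 on chromosome 1, held 9, and that of 984 kb between Gm22223 and Gm24602 on chromosome 8, 108 kb from the cadherin gene Cdh11, held 1. Ranked by sequence without N, the longest deserts without a member were 746 kb between Gm22702 and Gm11500 on chromosome 11 and 636 kb between Gm17192 and Gm49615 on chromosome 16, and neither held any region of the list. Their closest protein-coding genes were Kif2b and Car10, and Epha6 and Nsun3. Other long deserts without a member had Plod2 (962 kb away), Fam110b (98.9 kb) and Rorb (208 kb) among their closest protein-coding genes. Gaps longer than these in total are the starts of chromosomes 1, 8 and 19, which are mostly N.

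Protein-coding genes were a minority at the borders. Of the 3668 borders of deserts with a member, 898 (24.5%) were protein-coding genes, 783 (21.3%) lincRNA genes and 1167 (31.8%) processed pseudogenes. Over all 3523 gaps the shares were 24.2%, 21.8% and 31.7%. Both borders were protein-coding in 145 deserts, a single border in 608 and neither in 1081. The closest protein-coding genes faced the desert with their TSS at 1890 borders and with their 3 prime end at 1777. These counts came from 1942 distinct genes, since a gene could be the closest to several deserts. The matching shares over all gaps are not given.

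Lists of genes were compared with all 2965 gaps of at least 100 kb, of which 56.9% held a member at 12.3 members per Mb of far sequence over the gaps, with a median of 6.05 per Mb. A gap was counted for a list when the closest protein-coding gene on either side, at any distance, was on it. A gene could thus count for several gaps, so the gaps of a list are not independent loci. The lists held from 42 to 1455 autosomal genes. For pluripotency genes there were 30 gaps, and 22 of them (73.3%) held a member, at 14.5 per Mb over the gaps and a median of 17.1 per Mb. These gaps were short, with a median of 133 kb against 170 kb over all gaps of at least 100 kb. Over all gaps of 100 to 200 kb the density was 17.6 per Mb. The 334 kb between Mir6378 and 1700017M07Rik on chromosome 3, whose closest protein-coding gene on the left is Sox2, 270 kb away, held 5 members. A desert between Tbx3, a T-box factor gene 6.49 kb away, and Tbx5, 27.3 kb away, held 3 members, and another 3 lay in a desert that Med13l borders, with Tbx3 795 kb away on the other side. Deserts with Spry2 at the border, Sall4 0.165 kb away and Nr5a2 407 kb away held 2 members each. A desert 104 kb from Klf4 held 1 and another, 856 kb from Klf4 and 61.1 kb from Actl7b, held 2. Of 158 gaps for neuroectoderm genes, 88 (55.7%) held a member, at 12.2 per Mb over the gaps and a median of 5.45 per Mb. The largest numbers were 13, 12, 8 and 7. The desert with 13 lay 1490 kb from Zeb2 and 1272 kb from Acvr2a, that with 12 lay 1010 kb from Sall3 and 148 kb from Galr1, and that with 8 was bordered by Arrdc3, with Nr2f1 2294 kb away. The 7 lay between Dmrta2 and Elavl4. Of 63 gaps for mesendoderm genes, 33 (52.4%) held a member, at 12.6 per Mb and a median of 6.78 per Mb. Among them were 8 members in a desert 44.7 kb from Sox9, 6 in a desert 168 kb from Foxa2, 5 next to Gata6, which encodes a zinc finger factor of primitive endoderm, and 4 in a desert bordered by Dicer1 and 52.6 kb from Gsc.

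Gaps for ligands and modulators of the FGF, BMP, TGF-beta and WNT pathways numbered 48. Of these, 33 (68.8%) held a member, and the density over all 48 was 19.2 per Mb, with a median of 12.0 per Mb. The median length of the 48 gaps was 160 kb. The genes of this list were named after their values were seen. Besides Bmp7, the list included 8 members in a desert bordered by Hao1 and 21.5 kb from Bmp2, 8 in a desert 106 kb from Lyplal1 and 275 kb from Tgfb2, 7 in a desert 66.3 kb from Fgf10 with Nnt about as far away on the other side, and 6 next to Nog, the gene of the BMP antagonist noggin. Neuronal adhesion genes were the closest protein-coding genes on at least 1 side of 555 gaps, the most of the 8 lists, and 332 (59.8%) held a member, at 9.89 per Mb over the gaps and a median of 6.01 per Mb. Their gaps were long, with a median of 205 kb against 170 kb over all gaps. For transcription factor families 228 of 401 gaps (56.9%) held a member, at 13.8 per Mb and a median of 6.48 per Mb, and for ion channels and neurotransmitter receptors 107 of 185 (57.8%), at 12.5 per Mb and a median of 7.01 per Mb. For olfactory and vomeronasal receptor genes there were 9 gaps, and 4 of them (44.4%) held a member, at 10.8 per Mb over the gaps and a median of 0 per Mb. These lists were described by counts and medians and were not tested.

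The 10 members farthest from a TSS lay in 4 deserts. The farthest, at chr1:114594045-114594178, was 625651 bp from a TSS and held no repeat-masked base. Of the 10 farthest, 4 lay in the same desert between 9330185C12Rik and Gm4854, whose closest protein-coding genes are Dsel, 2099 kb to the left, and Cntnap5a, a contactin-associated gene of the neurexin family, 466 kb to the right. Another 3 lay between Gm12004 and 4930554G24Rik on chromosome 11, with Cobl, an actin nucleator gene, 533 kb to the left and Pom121l12 527 kb to the right, 2 between Nxph1 and Gm5110, and 1 between Gm38269 and Gm29514, 75.3 kb from Brinp3. The other 9 were 52.3 to 100% repeat-masked, and 8 of these had 22 to 212 similar regions elsewhere in the list.

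The widest member, 1947 bp at chr6:10090776-10092722, lay in the same desert between Nxph1 and Gm5110, 81105 bp from a TSS, and was 61.5% repeat-masked. The second, 1895 bp at chr13:110018430-110020324, lay between Pde4d, a cAMP phosphodiesterase gene, and Rab3c, a gene of a vesicle-associated GTPase, in a gap of 101 kb, was 8.71% repeat-masked and lay inside the RefSeq gene Gm32881. The third, 1690 bp at chr12:12176375-12178064, lay between Gm26171 and Fam49a. Of the 10 widest, 4 had a similar region over at least 50% of their own length. The widest had none, yet joined the group of 1106 through narrower members. The widest in repeat sequence included 1461 bp next to Fign (97.7% repeat-masked) and 1468 bp between Defb41 and Gm5252 (98.6%).

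Most members stood alone. When members with centres at most 10 kb apart were joined in runs, 2808 (59.9%) had no partner, 1086 formed pairs and 231 (4.92%) lay in 38 runs of 5 or more. The largest run, 10 members over 37.1 kb, lay in the desert between Rybp and Gm23234, at chr6:100401805-100438950, with a median width of 391.5 bp. A run of 9 over 34.1 kb lay between Gm9959 and C230072F16Rik on chromosome 17, with Map4k3 and Tmem178 as the closest protein-coding genes. Runs of 8 lay in the desert left of Rbms3, between 4932435O22Rik and Gm11689, with the synaptic adhesion gene Sdk2 382 kb to the left and Rpl38 3.92 kb to the right, and left of Nap1l1, a histone chaperone gene. All 8 members of the run between 4932435O22Rik and Gm11689 were centred inside the RefSeq gene Gm31724, while 1 member of the run of 9 lay inside Gm33596 and 1 of the run at Rbms3 inside Gm31559. Of the 10 windows of the largest run, 1 held a SOX motif and 1 a KLF motif.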

How the data were processed

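ATAC-seq reads of the 12 libraries were processed by the authors. Alignment to mm10 used STAR (2.5.3a) with unique hits only, duplicates went out with Picard, MACS2 (2.1.1.20160309) gave peaks per library, and BEDOPS merged them over libraries. Peaks shared with a ChIP-seq input were dropped. Versions come from the submitters' processing notes. No adjustment of read ends for Tn5 is described. The deposited list holds chromosome, start and end, with no measured value. ChIP-seq data were not analysed here. Of the sequences chosen for display, 1 is not reported here.

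Positions were compared with GENCODE M21 and GRCm38 using Python (3.11.15), pandas (2.3.3), numpy (2.4.6), scipy (1.17.1), pysam (0.24.0) and blastn (2.17.0), and plotted with matplotlib (3.10.9). Density counted regions per Mb of sequence without N that met the same conditions. The two-sided exact sign and McNemar tests were first tested on simulated data. Named genes border the richest, longest, emptiest and densest deserts, the 10 farthest and 10 widest members and the largest runs, or are listed genes; RefSeq genes, further lists and similar groups were named after their values were seen. Members and lists were chosen with earlier results of these data known. Alternatives changed the threshold, genes, region filters, windows and flanks. Intervals cover counting error only.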

Additional observations from a re-analysis of the deposited data

Results flagged for a closer look

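The X chromosome was outside the rule, and 169 of its regions also lay outside genes and more than 50 kb from a TSS, at 5.11 regions per Mb of such sequence, below the lowest autosome (6.76 per Mb). They were singled out as a signal in data that the comparisons did not use. Autosomes held 79278 of the 81132 regions of the list. Other regions of the X chromosome were not counted per Mb, so the low density is not shown to be particular to far sequence.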

How the results depend on the processing

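No paired analysis was possible because the list has no column per library, although the populations share replicate numbers. Each of the 35 results was recomputed under the settings that apply to it, which gave 216 values, and 175 kept direction and side of the threshold or stayed within 1.5 times the main count. The sign test against flanks reused the main windows, so its direction could not change. Differences are far intergenic minus comparator, in percentage points unless stated; the cause was not tested.

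At a threshold of 25 kb there were 9494 regions in 3754 gaps, and at 100 kb 1680 in 657. At 100 kb, against near regions OCT went to 0.878, and against far intronic regions density to -1.99 per Mb and KLF to -1.63 without passing, and SOX (-0.00634) and AP-1 (-1.71) turned sign. With protein-coding genes alone there were 14650 regions. OCT (0.871) and KLF (-1.23) against near and density (-1.06 per Mb) and KLF (-1.13) against far intronic regions no longer passed, width passed against far intronic regions (19 bp), and sign turned for ESRRB against near (-0.0147) and, against far intronic regions, for GC (0.0532), neighbours (2.11), ESRRB (-0.0496) and TEAD (0.165).

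With regions of at least 200 bp, width passed against near (17 bp) and far intronic regions (25 bp), OCT against near (0.881) and KLF against far intronic regions (-2.63) did not, and AP-1 turned against both (-0.222 and -0.139). KLF against far intronic regions did not pass with neighbours joined (-2.27), without chromosome 6 (-2.37) or over whole regions (-1.79). Without chromosome 6, OCT against near (0.821) and density against far intronic regions (-2.40 per Mb) did not pass and AP-1 against far intronic regions turned (-0.164). Over whole regions OCT against near (0.989) did not pass and TEAD against far intronic regions turned (0.0589). None of the results that turned against near or far intronic regions had passed under the original choices.

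Against flanks, OCT turned with 2 kb flanks (0.746), GC-matched pairs (1.47) and matches outside repeats (0.597). TEAD did not pass in GC-matched pairs (0.589) or outside repeats (0.490), and AP-1 did not by the sign test (1.36) or outside repeats (0.0640). Leaving out repeat matches and RefSeq genes was chosen after seeing the data. The list gives no depth for any region, so no limit from it can be given.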
